A study of Homo sapiens with 8 samples.

Results

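The ligands and receptors of axon guidance were examined in A375 cells, an established human melanoma cell line, after 24 h with or without tumour necrosis factor (TNF). The set was taken by gene symbol: semaphorins of classes 3 to 7, plexins, neuropilins, Eph receptors, ephrins, Slits, Robos, the netrins NTN1, NTN3, NTN4 and NTN5, and the netrin receptors DCC, NEO1 and UNC5A to UNC5D. It held 70 of the 60710 rows of the count table, 35 ligands and 35 receptors. Expression was measured by RNA sequencing in 8 libraries. NT cells (4 libraries) were left untreated, and TNF cells (4 libraries) received 50 ng/mL of recombinant human TNF. Both groups were grown in serum-supplemented medium, and each experiment date gave 1 NT and 1 TNF library, which carry the same replicate number. All libraries come from 1 cell line, so the error given here is the spread between experiments on that line.

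Semaphorins are secreted or membrane-bound cues that signal through plexins, with neuropilins as co-receptors for most secreted class 3 members. Ephrins stay attached to the cell that makes them and activate Eph receptor tyrosine kinases on neighbouring cells, Slits are secreted repellents read by Robo receptors, and netrins attract or repel through DCC, neogenin (NEO1) and UNC5 receptors. All these families guide growing axons and also direct migrating neural crest cells, from which melanocytes arise, and endothelial cells.

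Total counts ran from 30989755 to 44373224 per NT library and from 33317402 to 43125031 per TNF library. The 70 genes together took 0.159% to 0.181% of the counts in NT and 0.224% to 0.247% in TNF libraries. Of 12 classical TNF response genes, 11 could be tested and all 11 were higher in TNF-treated cells, with a median log2 fold change of 3.04. SOX10, a factor of the melanocyte lineage, was present in every library at 953 to 1296 CPM (counts scaled to library size), whereas the pigment genes PMEL and MLANA were at most at 0.645 CPM in any library. Of the 7 lineage markers 5 were tested, and S100B, a calcium-binding protein of melanocytic and Schwann cells, was the called one, at 11.7 to 20.3 CPM in NT and 2.64 to 3.50 CPM in TNF libraries. MITF was at 19.6 to 22.7 CPM in NT and 18.8 to 24.6 CPM in TNF libraries and was not called. Of 3 neuronal markers, TUBB3 was called higher, at 387 to 441 CPM in NT and 503 to 540 CPM in TNF libraries. SYN1 was at most at 1.49 CPM and not called, and RBFOX3 had 28 counts in all. The epithelial keratin KRT5 was called higher, at 0.109 to 0.278 CPM in NT and 1.26 to 2.20 CPM in TNF libraries. The other 2 epithelial markers, EPCAM and CDH1, had 9 and 4 counts in all. Of 5 leukocyte markers, 4 were too scarce to be tested, among them PTPRC, the pan-leukocyte marker, with 3 counts in all libraries together. The lysosomal CD68 was called higher, at 20.8 to 27.0 CPM in NT and 42.0 to 71.9 CPM in TNF libraries. NT replicates 2 and 4 and TNF replicate 4 held more ribosomal, 7SK and 7SL RNA (0.0124% to 0.0129% of counts, against 0.00246% to 0.00426% in the others), and counts without these 3 libraries are given beside the main ones.

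TNF-treated cells differed from NT cells in 35 of the 53 tested genes. Of the 70 genes, 53 passed the filter on low counts, and 25 of them were higher and 10 lower in TNF-treated cells at an adjusted p under 0.05 (edgeR quasi-likelihood test, Benjamini-Hochberg adjustment over 16186 genes), while 18 did not pass. This is 66.0% of the tested genes of the set, beside 24.4% of all genes tested. Among all genes tested, 14.5% were higher and 9.90% lower. The median log2 fold change was 0.33 over the 53 genes and -0.00 over all genes tested. A change of more than 2-fold was seen for 10 higher and 7 lower genes of the set, beside 5.62% and 2.39% of all genes tested. In all 35 called genes the 4 experiments moved in 1 direction, which their selection by the test favours. The share over all called genes was not computed. The CPM values of both groups did not overlap in 32 of the 53 tested genes of the set, called or not, beside 27.3% of all genes tested. With the experiment as a replicate block, 27 genes of the set were higher and 15 lower, and the 35 calls were all kept. Calls over all genes tested also rose under the block, from 2345 higher and 1603 lower to 3451 and 2946, so the gain was not particular to the set. Without the 3 libraries with more ribosomal RNA, 22 genes of the set were higher and 6 lower, beside 2155 and 1401 over all genes. SEMA4A passed the filter through its TNF libraries alone, and SEMA3E and UNC5C through their NT libraries, so these 3 were tested because 1 group was high.

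**Figure D1:**
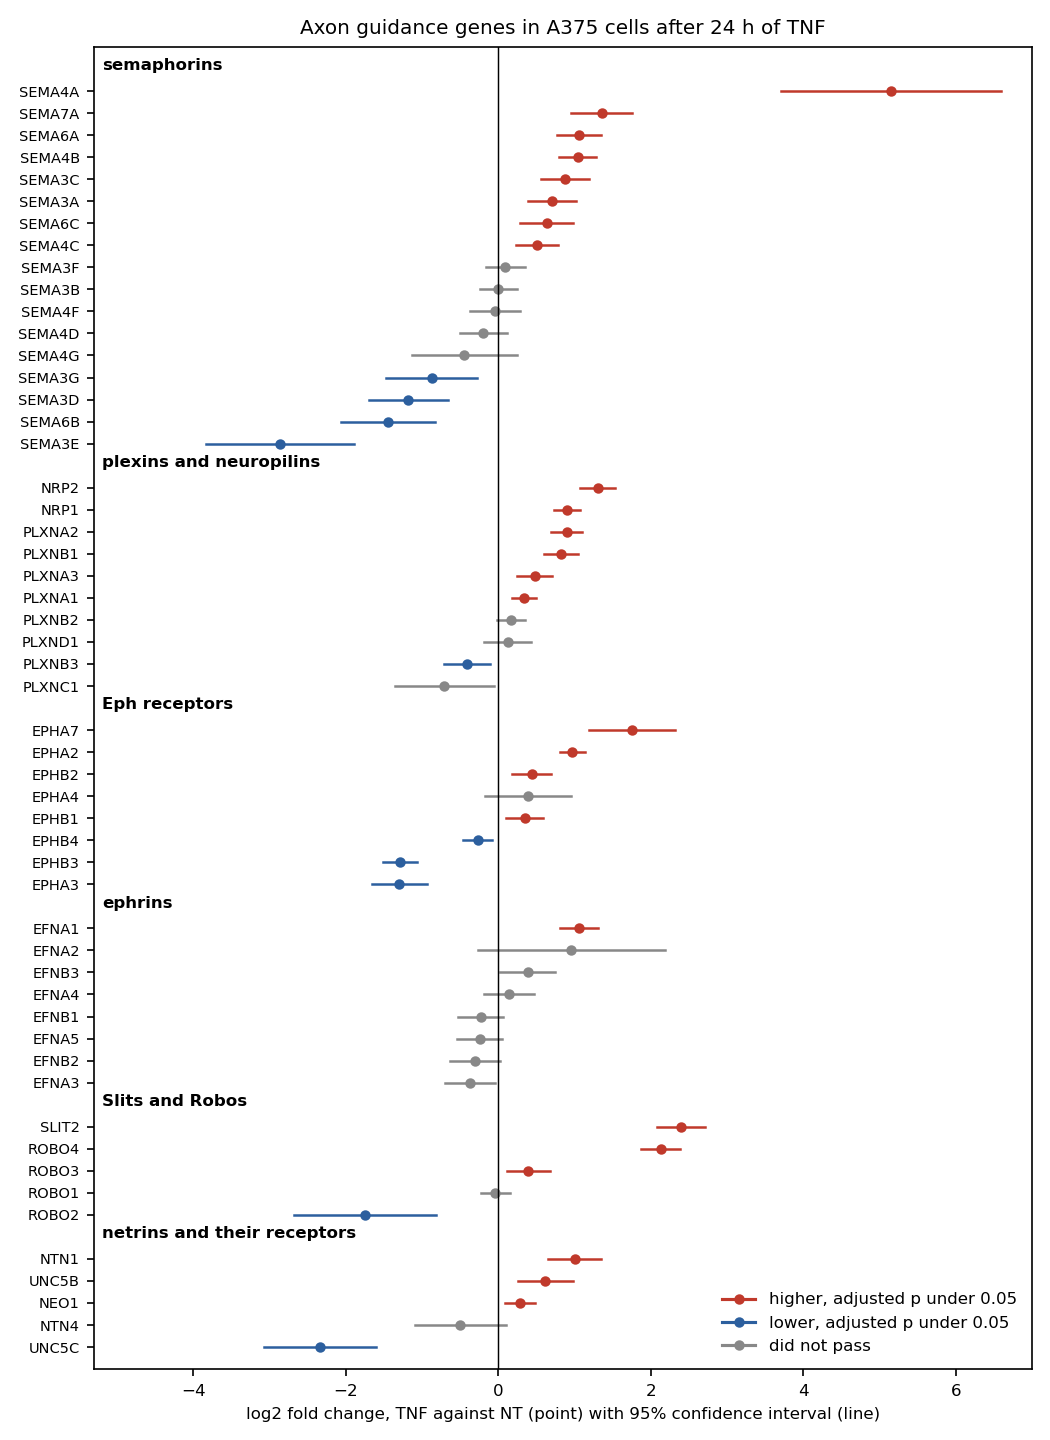
Log2 fold change of TNF against NT (x axis, points) with its 95% confidence interval (lines) for the 53 tested genes, grouped by role and coloured by call at an adjusted p under 0.05. SEMA4A at 5.15, SLIT2 at 2.39 and ROBO4 at 2.13 lie farthest to the right, SEMA3E at -2.86 and UNC5C at -2.34 farthest to the left, and 7 of the 8 ephrins have grey points.

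CPM values below are on library sizes scaled by the trimmed mean of M-values (TMM), library values are listed for replicates 1 to 4 in order, and errors of mean CPM are SD over 4 libraries. Fold changes come from the edgeR fit, with the standard error (SE) on the log2 scale, and every adjusted p is from that fit unless another setting is named.

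The Slit-Robo genes SLIT2 and ROBO4 had the largest rises among genes of at least 1 CPM on average. In a bulk library, a change in the share of expressing cells and a change in RNA per cell cannot be told apart. SLIT2, a secreted repellent (chr4:20251905-20620561, plus strand, GRCh38), measured 15.6, 16.5, 19.3 and 22.7 CPM in the NT libraries and 78.4, 107, 93.2 and 110.0 CPM in the TNF libraries. Every TNF library stood at more than 3 times the highest NT library, and the fold change was 5.25-fold (95% confidence interval 4.21 to 6.55), log2 2.39 (SE 0.14, adjusted p = 1.29e-06). An intronic transcript, SLIT2-IT1, overlaps SLIT2 over 2703 bases on the same strand, so the assignment of reads there is uncertain. ROBO4, a Robo receptor known from endothelial cells (chr11:124883691-124898500, minus strand), rose from 34.6, 38.4, 40.5 and 47.4 CPM to 170.3, 177, 154 and 203 CPM, again without overlap. Its fold change was 4.38-fold (95% confidence interval 3.67 to 5.22, adjusted p = 6.51e-07). ROBO1, the widely expressed Slit receptor, had 57.2 ± 4.37 CPM in NT and 55.7 ± 5.10 CPM in TNF-treated cells, a difference of -0.04 on the log2 scale (95% confidence interval -0.23 to 0.15, adjusted p = 0.800). ROBO2 was scarce and fell by 1.75 on the log2 scale (SE 0.42, adjusted p = 0.0117), from 49, 36, 21 and 73 counts in NT to 8, 17, 16 and 11 counts in TNF libraries. Without the 3 libraries with more ribosomal RNA the ROBO2 difference was -1.21 (adjusted p = 0.0785). ROBO3, a Robo of commissural axons, rose by 0.39 (SE 0.13, adjusted p = 0.0482) with overlapping groups, and its adjusted p was 0.0715 to 0.141 on leaving out NT replicate 1, 2 or 3 or TNF replicate 1, 2 or 4. With the replicate block and all libraries the adjusted p of ROBO3 was 0.0115. SLIT1 (7 counts in all NT and 9 in all TNF libraries) and SLIT3 (3 and 28 counts) were too scarce to be tested. With no filter on low counts the SLIT3 difference had an adjusted p of 0.0306. It rests on 0, 0, 0 and 3 counts in NT and 7, 6, 12 and 3 counts in TNF libraries, equal in replicate 4.

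Since ROBO4 is best known from endothelium, endothelial markers are given beside it. PECAM1 was called higher (7.16-fold, adjusted p = 6.90e-05), at 0.189 to 0.449 CPM in NT and 1.75 to 3.03 CPM in TNF libraries. CDH5, the endothelial cadherin, had 40 counts in all libraries together and was not tested. VWF was at 0.413 to 1.13 CPM in NT and 0.0324 to 0.371 CPM in TNF libraries and was not called (adjusted p = 0.0514). The summed level of these 3 markers was 0.825 to 1.80 CPM in NT and 2.12 to 3.43 CPM in TNF libraries, below that of ROBO4 alone in every library, and its part in the ROBO4 difference was not tested.

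Promoter windows of 250 bases upstream of the RefSeq start (GRCh38.p14), read 5′ to 3′ on the gene's strand, were available for 60 of the 70 genes and were searched on both strands for the kB consensus, the recognition site of NF-kB, and for the AP-1 motif TGANTCA. SLIT2 and ROBO4 are shown as the genes with these largest rises. EPHB1 and EPHA3 are shown as the called genes with a kB match, EPHB1 among the higher and EPHA3 among the lower genes; capitals mark the match.
SLIT2 (chr4:20251655-20251904, plus strand): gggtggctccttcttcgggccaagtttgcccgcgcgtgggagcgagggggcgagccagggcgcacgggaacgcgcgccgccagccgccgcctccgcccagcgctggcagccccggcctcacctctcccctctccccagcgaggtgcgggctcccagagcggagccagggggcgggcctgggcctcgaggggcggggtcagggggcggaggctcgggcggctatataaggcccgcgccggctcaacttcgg
ROBO4 (chr11:124897866-124898115, minus strand): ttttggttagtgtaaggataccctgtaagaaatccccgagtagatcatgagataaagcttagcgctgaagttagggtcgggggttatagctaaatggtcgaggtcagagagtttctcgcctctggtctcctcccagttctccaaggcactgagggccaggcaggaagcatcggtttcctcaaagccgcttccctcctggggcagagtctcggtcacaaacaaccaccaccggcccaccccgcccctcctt
EPHB1 (chr3:134795010-134795259, plus strand): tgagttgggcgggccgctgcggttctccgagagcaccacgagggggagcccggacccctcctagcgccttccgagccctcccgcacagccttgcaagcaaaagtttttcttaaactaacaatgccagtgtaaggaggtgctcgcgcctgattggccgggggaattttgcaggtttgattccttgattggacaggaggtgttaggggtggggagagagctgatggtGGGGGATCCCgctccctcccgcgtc
EPHA3 (chr3:89107371-89107620, plus strand): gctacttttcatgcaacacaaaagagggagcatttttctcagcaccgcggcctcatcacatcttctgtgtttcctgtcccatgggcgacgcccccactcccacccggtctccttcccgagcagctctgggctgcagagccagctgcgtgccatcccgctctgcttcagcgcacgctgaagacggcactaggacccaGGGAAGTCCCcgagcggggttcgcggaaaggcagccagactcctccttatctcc
The SLIT2 and ROBO4 windows held no match to either motif. The ROBO4 window lies inside the gene as GENCODE release 44 draws it, whose outermost start is at 124898500. A kB match stood in 1 of 20 windows of higher genes, 1 of 9 of lower genes, 2 of 17 of genes that did not pass (NTN4 and EFNA2) and 0 of 14 of untested genes, beside 5.05% of all 27305 promoters and 6.06% of those of tested genes. The AP-1 motif was found in the PLXNC1 window and in no other of the 60, beside 6.60% of all promoters and 4.2% of those of tested genes. The PLXNC1 window (chr12:94262369-94262618, plus strand) and those of some other genes also lie inside the gene as GENCODE draws it. PLXNC1 starts there at 94148577. A match is a run of letters, and binding was not measured.

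Eph receptors split by member. EPHA2, an ephrin-A receptor well known in melanoma and carcinoma cells (chr1:16124337-16156069, minus strand), was the most abundant gene of the set and measured 234, 234, 244 and 267 CPM in NT and 475, 469, 453 and 524 CPM in TNF libraries. It rose 1.96-fold (95% confidence interval 1.75 to 2.20), log2 0.97 (SE 0.08, adjusted p = 8.41e-06). EPHA7 went from 8.38, 5.68, 8.91 and 5.27 CPM to 34.7, 21.2, 23.9 and 15.4 CPM. All TNF libraries were above the highest NT value but spread widely, and the fold change was 3.37-fold (95% confidence interval 2.27 to 4.99, adjusted p = 0.000649).
EPHA3, a receptor for ephrin-A5, fell from 58.1, 51.8, 46.8 and 57.5 CPM to 26.2, 21.7, 24.6 and 14.6 CPM, with TNF replicate 4 the lowest. The level was 2.46-fold lower (95% confidence interval 1.91 to 3.15, adjusted p = 0.000224). EPHB3, an ephrin-B receptor, went from 48.4, 44, 47.1 and 38.4 CPM to 20.3, 18.6, 17.6 and 16.1 CPM, 2.45-fold lower (95% confidence interval 2.10 to 2.86, adjusted p = 8.22e-06). Neither gene's groups overlapped.

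Smaller changes were seen in 3 further EphB receptors. EPHB2 rose by 0.44 on the log2 scale (adjusted p = 0.0203), EPHB1 rose by 0.35 (adjusted p = 0.0409), and EPHB4, the ephrin-B2 receptor of veins, fell by 0.27 (adjusted p = 0.0419). Each of the 3 calls was lost on leaving out 1 of 6 libraries. The adjusted p was then 0.0511 to 0.0617 for EPHB2 (without NT replicate 2, 3 or 4 or TNF replicate 1, 2 or 3), 0.0595 to 0.104 for EPHB1 (NT 1, 2 or 3, TNF 2, 3 or 4) and 0.0566 to 0.111 for EPHB4 (NT 1, 2 or 4, TNF 1, 2 or 3). Without both libraries of experiment 4 it was 0.0601 for EPHB1 and 0.0757 for EPHB4. The EPHB1 and EPHB2 calls were also lost when libraries were scaled by their totals, with adjusted p of 0.0663 and 0.0782. These fits were without the replicate block. With the block and all libraries the adjusted p was 0.00251 for EPHB1, 0.00407 for EPHB2 and 0.00591 for EPHB4. EPHA4, a receptor for both ephrin classes, had 9.97 CPM in NT and 13.0 CPM in TNF-treated cells, with a difference of 0.38 (95% confidence interval -0.18 to 0.95, adjusted p = 0.324). The remaining 6 Eph receptors were too scarce to be tested: EPHA1, EPHA5, EPHA6, EPHA8, EPHA10 and EPHB6 had between 4 and 74 counts over all 8 libraries.

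Ephrins gave 1 call among 8, or 12.5%, beside 24.4% of all genes tested. EFNA1, a ligand of EPHA2 that was first isolated as a TNF-inducible gene of endothelial cells, measured 10.2, 9.78, 9.22 and 8.89 CPM in NT and 16.6, 19.6, 20.8 and 22.6 CPM in TNF libraries. The NT libraries lay close together, all TNF libraries were above them, and the fold change was 2.09-fold (95% confidence interval 1.76 to 2.48, adjusted p = 6.28e-05). EFNA1, EFNA3 and EFNA4 are neighbours on chromosome 1 (EFNA4 at chr1:155063737-155069553, plus strand; EFNA3 at chr1:155078837-155087538, plus strand; EFNA1 at chr1:155127876-155134899, plus strand). EFNA3 differed by -0.37 (95% confidence interval -0.70 to -0.04, adjusted p = 0.102) and EFNA4 by 0.14 (95% confidence interval -0.19 to 0.47, adjusted p = 0.552). A read-through gene, EFNA4-EFNA3, covers both, so the division of reads between EFNA3 and EFNA4 is uncertain.
EFNA5 (-0.24, adjusted p = 0.226), EFNB1 (-0.23, 0.258), EFNB2 (-0.31, 0.163) and EFNB3 (0.39, 0.115) did not pass either. With the experiment as a replicate block, EFNA5 (-0.23, adjusted p = 0.0474), EFNB2 (-0.31, 0.0126) and EFNB3 (0.37, 0.0137) did. EFNB3 also passed without TNF replicate 4 (0.52, adjusted p = 0.00897). EFNA2 had 28 counts in NT and 51 in TNF libraries in sum (adjusted p = 0.255).

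Among the 20 semaphorins, 17 were tested, of which 8 were higher and 4 lower, beside 14.5% and 9.90% of all genes tested. SEMA7A, a lipid-anchored semaphorin that binds PLXNC1 and beta1 integrin (chr15:74409289-74433958, minus strand), rose from 29.8, 35.6, 26.4 and 45.8 CPM to 81.9, 81.2, 74.1 and 114 CPM. The groups were apart in every library, and the fold change was 2.55-fold (95% confidence interval 1.93 to 3.39, adjusted p = 0.000390). SEMA4A, a membrane-bound semaphorin also known from immune cells (chr1:156147366-156177752, plus strand), had 2, 2, 3 and 0 counts in the NT libraries and 38, 60, 39 and 108 counts in the TNF libraries. Summed over libraries this was 7 against 245 counts, a ratio of 36.3 after scaling (95% interval 17.3 to 91.2, covering counting error only), and the fitted log2 difference of 5.15 (SE 0.65, adjusted p = 0.000214) rests on those few NT counts. SEMA4B went from 21.2, 15, 17.5 and 16 CPM to 34.9, 33.8, 37.3 and 37.2 CPM, 2.05-fold higher (95% confidence interval 1.74 to 2.43, adjusted p = 6.08e-05). SEMA4C, a ligand of PLXNB2, rose by 0.50 (adjusted p = 0.0142), with overlapping groups although each experiment moved up. The other class 4 members did not pass, namely SEMA4D (-0.20, adjusted p = 0.360), SEMA4F (-0.05, 0.858) and SEMA4G (-0.45, 0.346). SEMA4G passed with the replicate block (-0.45, adjusted p = 0.0182).

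Class 6 semaphorins, transmembrane ligands of class A plexins, moved in opposite directions. SEMA6A measured 5.43, 4.73, 4.37 and 4.38 CPM in NT and 8.78, 10.7, 9.06 and 11 CPM in TNF libraries, a rise of 2.09-fold (95% confidence interval 1.71 to 2.55, adjusted p = 0.000178). SEMA6C rose by 0.63 (adjusted p = 0.0133). SEMA6B, the more abundant gene, fell from 122, 89.9, 75.1 and 60.7 CPM to 46.7, 28.2, 33.4 and 19.7 CPM. Its level ranged widely between experiments but went down in each of the 4, by 2.72-fold (95% confidence interval 1.78 to 4.16) in the fit (adjusted p = 0.00386). SEMA6D had 5 counts over all libraries, and the class 5 members SEMA5A and SEMA5B had 65 and 3, and none of these was tested.

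The secreted class 3 semaphorins also divided. SEMA3A, the prototype repellent that uses NRP1, rose by 0.70 on the log2 scale (SE 0.14, adjusted p = 0.00497), with 35.4 CPM in NT and 57.5 CPM in TNF-treated cells. SEMA3C, which binds both neuropilins, rose by 0.87 (SE 0.14, adjusted p = 0.00128), with 49.7 CPM in NT and 90.8 CPM in TNF-treated cells. Lower levels were seen for SEMA3D, with 4.70, 3.55, 4.44 and 4.60 CPM in NT and 1.64, 1.84, 2.80 and 1.29 CPM in TNF libraries, a fall of 2.26-fold (95% confidence interval 1.58 to 3.24, adjusted p = 0.00392). SEMA3E, the class 3 member that binds PLXND1 directly, fell from 91, 45, 47 and 41 counts to 7, 3, 4 and 14 counts. Summed, this was 224 against 28 counts, 7.72 times fewer after scaling (95% interval 5.20 to 11.9, counting error only), with a fitted log2 difference of -2.86 (adjusted p = 0.000793). TNF replicate 4 held 14 of the 28 counts, and the difference was -3.52 without it (adjusted p = 7.25e-05). SEMA3G fell by 0.88 (adjusted p = 0.0362), a call lost without NT replicate 1, NT replicate 2 or TNF replicate 2 (adjusted p 0.0916 to 0.101). With the replicate block and all libraries the adjusted p of SEMA3G was 0.00672. The abundant SEMA3B measured 113, 110.0, 81.3 and 98.7 CPM in NT and 109.6, 100.005, 88.4 and 104 CPM in TNF libraries, a log2 difference of -0.00 (95% confidence interval -0.24 to 0.24, adjusted p = 0.994). SEMA3F differed by 0.09 (95% confidence interval -0.17 to 0.35, adjusted p = 0.640).

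**Figure D2:**
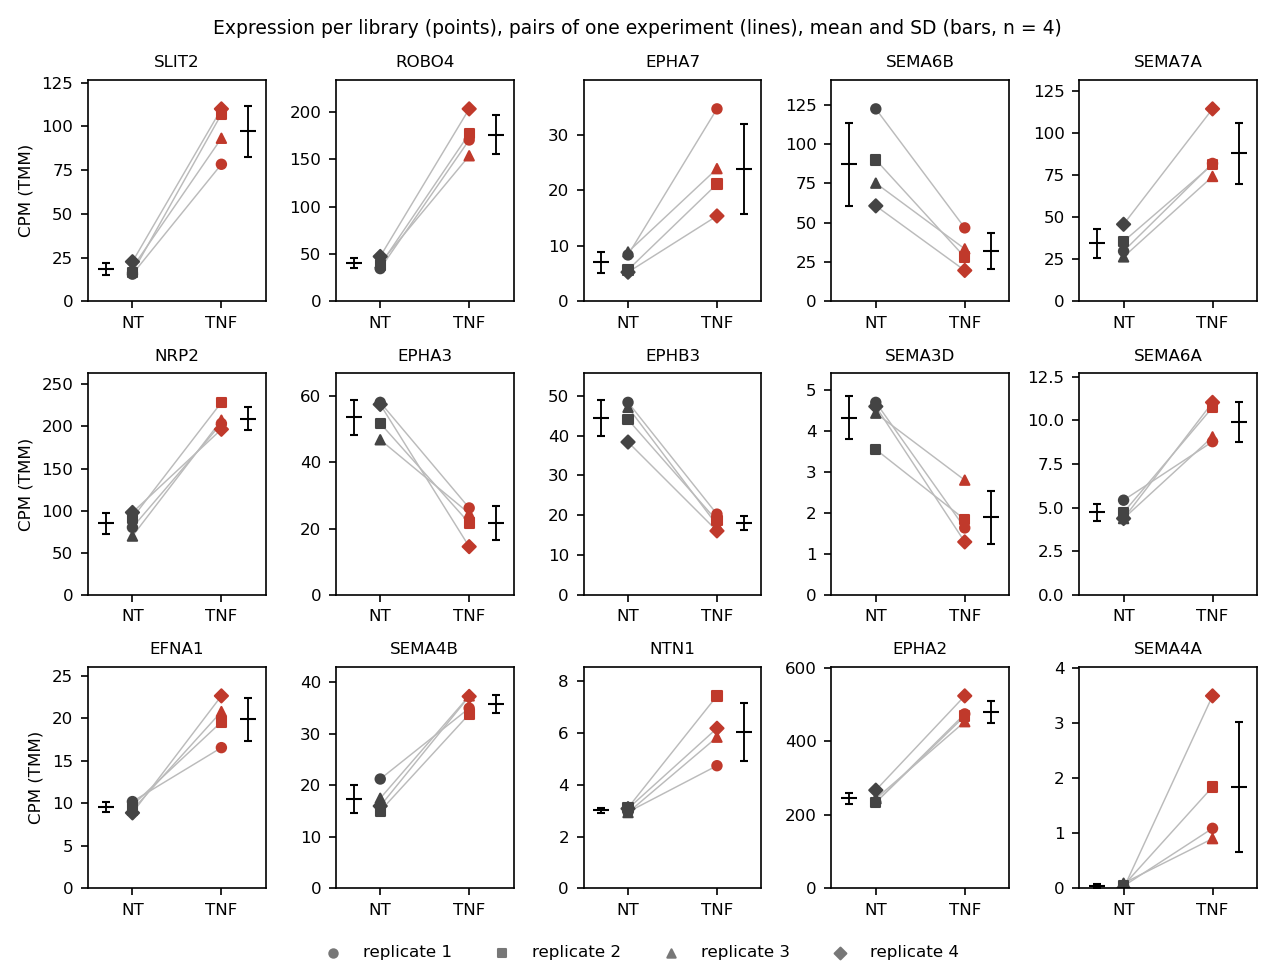
CPM (y axis, TMM-scaled) of SEMA4A and the 14 called genes with the largest change among those of at least 1 CPM on average, with 1 symbol per library, lines joining NT and TNF libraries of 1 experiment, and bars for the mean and SD (n = 4). NT and TNF points are apart in all 15 panels, all lines of EPHA3, EPHB3, SEMA3D and SEMA6B fall, and those of the other 11 genes rise. The panels show called genes with large changes, and that choice favours such separation.

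Both neuropilins rose. NRP2, the co-receptor of SEMA3C and SEMA3F (chr2:205681990-205798133, plus strand), measured 80.1, 91.4, 69.8 and 97.9 CPM in NT and 203, 228, 207 and 197 CPM in TNF libraries. No TNF library came near the NT range, and the fold change was 2.46-fold (95% confidence interval 2.10 to 2.90, adjusted p = 1.09e-05). NRP1 had 55.0 CPM in NT and 103 CPM in TNF-treated cells, a log2 difference of 0.90 (SE 0.08, adjusted p = 1.34e-05). All 3 tested class A plexins, the usual signalling partners of neuropilins and class 6 semaphorins, were higher: PLXNA2 by 0.90 (adjusted p = 4.84e-05), PLXNA3 by 0.48 (0.00707) and PLXNA1 by 0.33 (0.00563). PLXNA3 did not pass without the 3 libraries with more ribosomal RNA (0.42, adjusted p = 0.0645). PLXNA4 had 7 counts in NT and 24 in TNF libraries and was not tested.
Of the class B plexins, PLXNB1, the SEMA4D receptor, rose by 0.82 (SE 0.10, adjusted p = 0.000162), with 18.7 CPM in NT and 33.1 CPM in TNF-treated cells. PLXNB2 differed by 0.17 (95% confidence interval -0.01 to 0.36, adjusted p = 0.168) and passed with the replicate block (adjusted p = 0.0301). PLXNB3 fell by 0.41 (adjusted p = 0.0473) with overlapping groups, and its adjusted p was 0.0527 to 0.138 on leaving out NT replicate 1, 2 or 4 or TNF replicate 2, 3 or 4, and 0.0930 without experiment 4. With the replicate block and all libraries the adjusted p of PLXNB3 was 0.0212. SRPK3 overlaps PLXNB3 on the same strand, so reads at that end of the gene are uncertain.

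Netrin genes were expressed at lower levels. NTN1, the founding netrin, measured 2.95, 3.11, 2.93 and 3.08 CPM in NT and 4.74, 7.43, 5.84 and 6.18 CPM in TNF libraries. The NT values lay close together, every TNF value was above them, and the rise was 2.0-fold (95% confidence interval 1.57 to 2.55, adjusted p = 0.000946). NEO1, the most abundant netrin receptor here, had 31.2, 24.9, 29.3 and 28.1 CPM in NT and 37.0, 32.9, 35.3 and 32.8 CPM in TNF libraries. Its difference of 0.28 (adjusted p = 0.0360) was no longer called without NT replicate 2, 3 or 4 or TNF replicate 1, 2 or 3 (adjusted p 0.0606 to 0.105) or on library totals (0.20, adjusted p = 0.158). UNC5B, a repulsive netrin receptor that also binds ROBO4, rose by 0.62 (adjusted p = 0.0178), with an adjusted p of 0.0547 without NT replicate 3 and 0.0546 without TNF replicate 2, and 0.0542 without both libraries of experiment 4. With the replicate block and all libraries the adjusted p was 0.00312 for NEO1 and 0.00597 for UNC5B. UNC5C fell from 53, 37, 34 and 24 counts in NT to 8, 5, 12 and 3 counts in TNF libraries, or 5.10 times fewer in sum after scaling (95% interval 3.39 to 7.93, counting error only), with a log2 difference of -2.34 in the fit (adjusted p = 0.000462). NTN4 differed by -0.50 (adjusted p = 0.221) and passed with the replicate block (-0.55, adjusted p = 0.0299). DCC, the classical attractive receptor, had 37 counts over all libraries, and NTN3 (33 counts), NTN5 (5), UNC5A (1) and UNC5D (24 in NT and 69 in TNF libraries) were likewise not tested. With no filter the UNC5D difference was 1.55 (adjusted p = 0.0285). UNC5D was tested in 10 of the alternative fits and passed in 6, with an adjusted p of up to 0.0729.

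Known ligand-receptor pairs were set side by side. For EFNA1 and EPHA2 both partners rose, by 1.06 and 0.97 on the log2 scale. SEMA3A and NRP1 rose by 0.70 and 0.90, and SEMA3C and NRP2 by 0.87 and 1.30. SEMA3F, the other NRP2 ligand, did not pass. For SEMA3E and PLXND1 the ligand fell, while the receptor had 79.2 ± 7.81 CPM in NT and 86.3 ± 18.2 CPM in TNF-treated cells, a difference of 0.12 (95% confidence interval -0.18 to 0.43, adjusted p = 0.583). SEMA7A rose, whereas PLXNC1, its plexin, was at 1.27 CPM in NT and 0.774 CPM in TNF-treated cells and differed by -0.71 (adjusted p = 0.113). PLXNC1 passed with the replicate block (-0.76, adjusted p = 0.0445) and without TNF replicate 3 (-0.98, adjusted p = 0.0398). SEMA4D, the ligand of PLXNB1, did not pass while the receptor rose. SLIT2 rose by 2.39. Among the Robo genes, ROBO4 rose by 2.13 and ROBO3 by 0.39, ROBO2 fell by 1.75, and ROBO1 did not pass. Binding of SLIT2 to any of them was not measured.

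**Figure D3:**
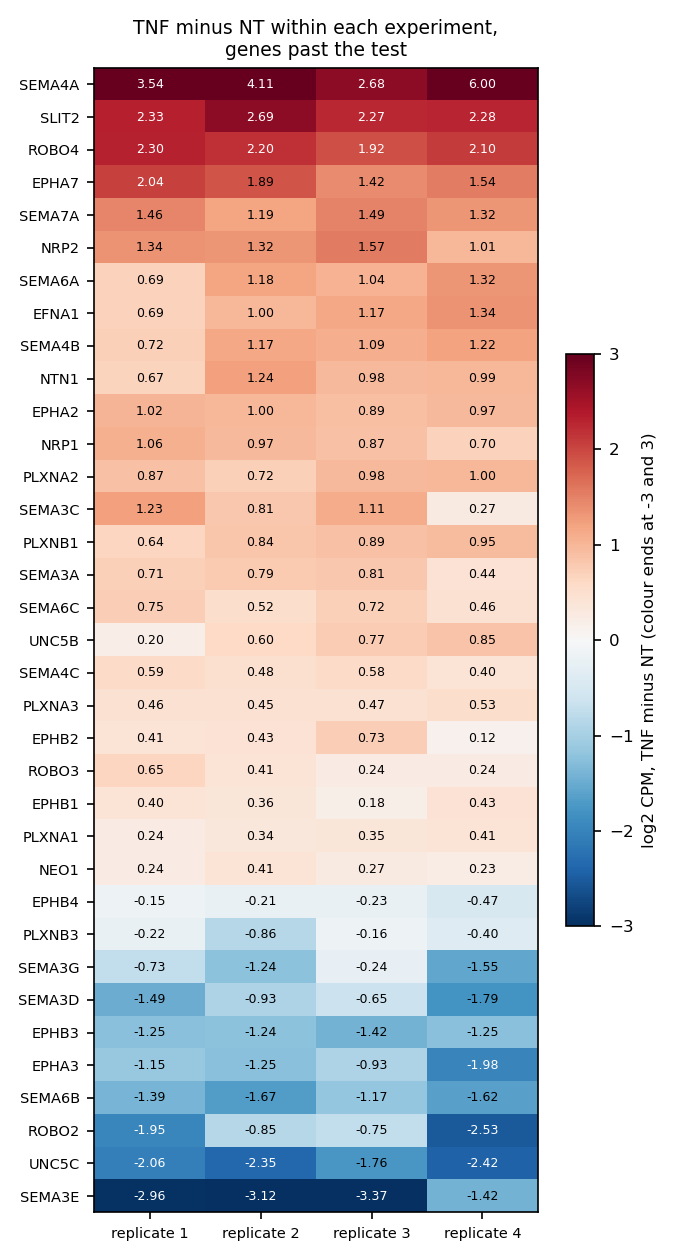
Difference in log2 CPM (TNF minus NT, colour and printed value) within each of the 4 experiments (columns) for the 35 called genes (rows), with colour limited to -3 to 3. Every row keeps 1 sign across its 4 columns, which the choice of called genes favours. The scarce genes SEMA4A (2.68 at the lowest), SEMA3E (-3.37 to -1.42) and ROBO2 (-2.53 to -0.75) have the widest spread.

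Levels of different genes were compared per kilobase (kb) of the canonical transcript. EPHA2 had 62.0 ± 3.97 CPM per kb in NT and 122 ± 7.69 CPM per kb in TNF-treated cells, the highest of the set in both groups. SEMA3B followed in NT cells, with 31.6 ± 4.47 CPM per kb in NT and 31.6 ± 2.82 CPM per kb in TNF-treated cells. ROBO4 had 9.37 ± 1.25 CPM per kb in NT and 41.0 ± 4.79 CPM per kb in TNF-treated cells, and NRP2 12.8 ± 1.87 CPM per kb in NT and 31.4 ± 2.07 CPM per kb in TNF-treated cells. In TNF-treated cells ROBO4 was second in mean level, with SEMA3B and NRP2 next below it. EPHB4 had 21.8 ± 2.26 CPM per kb in NT and 18.1 ± 1.04 CPM per kb in TNF-treated cells. Within the other roles EFNA1 led the ephrins in TNF-treated cells (6.14 ± 0.380 CPM per kb in NT and 12.8 ± 1.65 CPM per kb in TNF-treated cells), and NEO1 led the netrins and their receptors (3.99 ± 0.376 CPM per kb in NT and 4.86 ± 0.281 CPM per kb in TNF-treated cells). SEMA6B, next to SEMA3B in NT cells, had 22.5 ± 6.83 CPM per kb in NT and 8.28 ± 2.94 CPM per kb in TNF-treated cells.

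**Figure D4:**
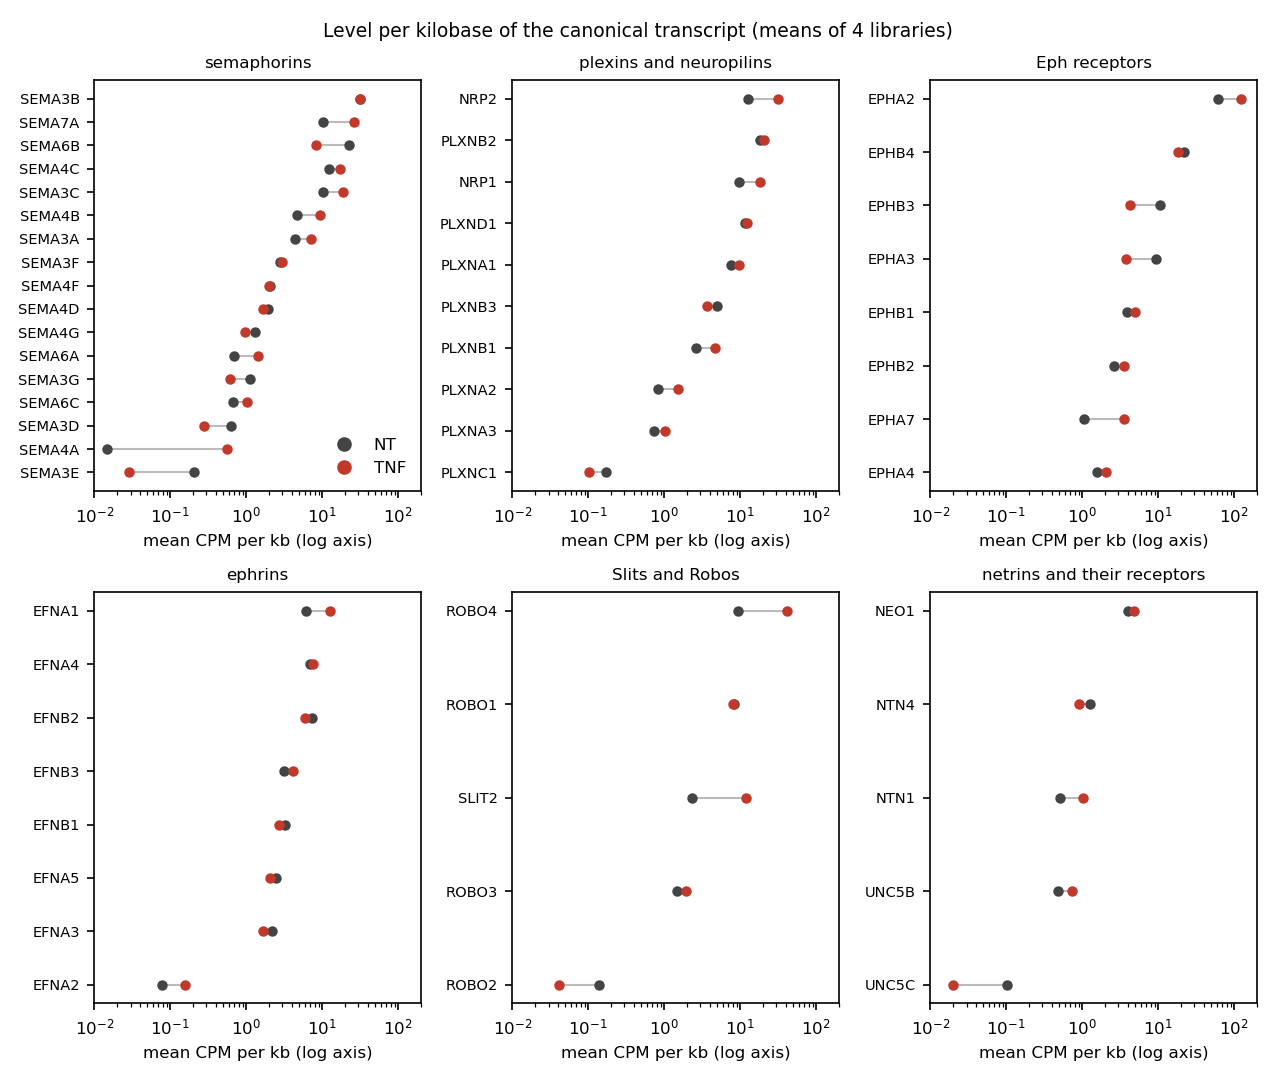
Mean CPM per kb of the canonical transcript (x axis, log scale) in NT (black) and TNF (red) libraries for the tested genes, in 1 panel per role and ordered by level. EPHA2 stands highest at 62.0 in NT and 122 in TNF-treated cells, and SEMA4A, SEMA3E, ROBO2, UNC5C, PLXNC1 and EFNA2 are among those under 1 in both groups.

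Other genes of the guidance pathways were taken from 4 lists, of which 92 of 108 genes were tested. Of these, 32 were higher and 15 lower, or 51.1%, beside 24.4% of all genes tested (14.5% higher and 9.90% lower), with a median log2 fold change of 0.18. Among co-receptors and further receptors of semaphorins, 5 of 10 tested were higher and 1 lower. MST1R, the kinase partner of class B plexins, rose by 1.61 (adjusted p = 0.000532), MET by 0.58 (0.000561) and KDR by 0.58 (0.0138), while the adhesion molecule NRCAM fell by 1.54 (5.34e-05). ITGB1, the integrin chain bound by SEMA7A, differed by 0.40 (adjusted p = 0.0652).
Other cues and their modulators gave 8 higher and 3 lower among 16. The hedgehog-binding protein HHIP rose by 2.98 (adjusted p = 0.000487) and FLRT2, a ligand of UNC5 receptors, by 2.06 (8.34e-06). RGMA, the NEO1 ligand, fell by 1.80 (0.00654) and FLRT1 by 1.53 (0.00859).
Proteases and scaffolds of Eph, ephrin and Slit proteins gave 6 higher and 3 lower among 19. The matrix metalloproteinase MMP14 rose by 1.70 (adjusted p = 3.14e-06) and the adaptor GRB10 by 1.13 (4.77e-05), and the phosphatase PTPN13 fell by 1.06 (0.000153). The cytoplasmic effectors had the smallest median, 0.07, with 13 higher and 8 lower among 47. Of these, the filopodial motor MYO10 rose by 2.08 (adjusted p = 2.10e-05), RRAS, a GTPase downstream of plexins, by 1.18 (7.48e-05) and the Robo effector SRGAP1 by 1.17 (5.12e-05), while CHN2 fell by 1.25 (0.0493).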

How the data were processed

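Polyadenylated RNA of A375 cells was extracted with a column kit and made into stranded libraries. The authors aligned reads with Bowtie2 (version not given in the sources used here) to the GRCh38 transcriptome and deposited the expected counts per gene of RSEM 1.2.25, not normalized. The strand setting of the counting is not given in the sources used here, and 36 of the 70 genes overlap a gene on the opposite strand and 11 one on the same strand. Replicates were numbered by experiment date. The 4 NT records hold files whose values equal the series table's column of another NT title, so columns of the series table, which match the titles, were used. Replicates differed by more than sampling noise (chi-square per degree of freedom at least 12.2). Libraries of 1 date deviated together (correlations 0.35, 0.17, 0.24 and 0.46 for replicates 1 to 4). Between NT and TNF libraries of different dates the correlations were -0.40 to 0.23, the highest for NT replicate 1 with TNF replicate 3. Each library correlated most with its partner of the same date. The numbers were therefore taken to pair the libraries, and the block by date was an alternative.

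Rounded counts were filtered (edgeR filterByExpr, minimum count 10, total 15), scaled by TMM and tested with edgeR 4.0.16 in R 4.3.3 (quasi-likelihood, robust, treatment only, Benjamini-Hochberg over 16186 genes, threshold 0.05). SE was taken as the log2 fold change over the square root of its F statistic. For log2 CPM, 2 counts were added as a prior. CPM are counts scaled to TMM library sizes. DESeq2 1.42.0, limma 3.58.1 voom, other scalings and filters, each library left out and the block were alternatives. Transcript lengths and positions are from GENCODE release 44, promoters from RefSeq (GRCh38.p14). Scripts were tested on simulated data. The genes, lists and tests were chosen with earlier results of these data known. All called genes were named: 30 by largest change, and ROBO3, EPHB1, PLXNA1, NEO1 and EPHB4, which lie outside that rule, after their values were seen. Library values were given for the 14 called genes with the largest change and a mean log2 CPM of at least 0, for the leading gene per kb of each role, and for SEMA4A. Further lists name up to 4 called genes by largest change, of which 1 is not reported here.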

Additional observations from a re-analysis of the deposited data

Results flagged for a closer look

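In SEMA3F, a class 3 semaphorin that did not pass the test, TNF replicate 4 lay apart from its group at a log2 CPM of 3.18 (9.03 CPM), against 3.48 to 3.52 in the other TNF libraries. In ROBO3, which was called higher, NT replicate 4 lay above its group at 2.93 (7.58 CPM), against 2.65 to 2.69 in the other NT libraries. Both libraries are among the 3 with more ribosomal RNA, and its part in these values was not tested. These were 2 of 106 groups examined with Dixon's criterion, where chance alone gives about 1 in 20, or 5.3.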

How the results depend on the processing

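Of the 35 called genes, 22 kept their call and direction in all 18 alternative fits. Over the 53 tested genes, 856 of 948 alternative values kept direction and side of the threshold, 67 were no longer past it, 11 were newly past it and 14 changed sign. Sign changes were confined to genes near 0 that did not pass: SEMA3B at 0.00327 with limma voom, 0.00538 with the replicate block, 0.0323 when the 3 libraries high in ribosomal RNA were left out and -0.0920 to 0.0565 on leaving out single libraries; SEMA4F at 0.0559 without those 3 libraries and -0.134 to 0.0375 on leaving out single ones; ROBO1 at 0.00556 without experiment 4 and -0.0933 to 0.0114 on leaving out single libraries; and PLXND1 at -0.00147 to 0.213 on leaving out single libraries. The causes were not tested.

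With the replicate block, which pairs libraries by date, all genes gave 3451 higher and 2946 lower calls beside 2345 and 1603, and the set 27 and 15 beside 25 and 10. Library totals gave 1925 higher and 2514 lower over all genes, and upper-quartile factors 2045 and 2196. At an adjusted p under 0.01, all genes gave 1548 and 772, and the set 18 and 6. Past a log2 change of 1, all genes gave 909 and 387, the set 10 and 7, and the further pathway lists 16 and 6. Leaving out the 3 libraries high in ribosomal RNA, a setting chosen after seeing the data, left 22 higher and 6 lower genes of the set, and 2155 and 1401 over all genes. It ended the calls of EPHB1, EPHB4, NEO1, PLXNA3, PLXNB3, ROBO2, ROBO3, SEMA3G and UNC5B. ROBO3 was also lost with voom, factors of DESeq2's kind (RLE), totals, upper-quartile factors and no filter, EPHB1 and NEO1 with the last 3, and EPHB2 with totals and upper-quartile factors. Without experiment 4 the calls of EPHB1, EPHB4, PLXNB3 and UNC5B were lost and EFNB3 was gained. Requiring 10 counts in every library left ROBO2, SEMA3E, SEMA4A and UNC5C untested. None of the 17 untested genes had more than 22 counts in a library. Whether depth or low expression kept them below the filter was not tested.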
